A study of Mus musculus with 12 samples.

Results

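The 32 genes described here carry out or control the synthesis of fatty acids and sterols and the export of cholesterol. They were taken by symbol, and all 32 were found in a table of 49585 genes. Fatty acid synthesis and desaturation has 12 of them (Acly, Acss2, Acaca, Fasn, Elovl1, Elovl5, Elovl6, Scd1, Scd2, Fads1, Fads2 and Srebf1). Sterol synthesis has 16 (Hmgcs1, Mvk, Pmvk, Mvd, Idi1, Fdps, Fdft1, Sqle, Lss, Cyp51, Msmo1, Nsdhl, Sc5d, Dhcr7, Srebf2 and Insig1). The liver X receptors (LXR) and the exporters they control have 4 (Nr1h3, Nr1h2, Abca1 and Abcg1).

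The study compared 4 groups of 3 RNA-seq libraries, all labelled as RAW264.7, an established mouse macrophage-like line. Every group received lipopolysaccharide (LPS, a bacterial ligand of Toll-like receptors) at 10 ng/mL together with mouse interferon gamma at 10 ng/mL, in DMEM with 10% serum. The groups were Mdivi-1 at 50 µM for 96 h, no Mdivi-1 for 96 h, Mdivi-1 at 50 µM for 24 h and no Mdivi-1 for 24 h. Mdivi-1, known to block Drp1, the GTPase that divides mitochondria, was added with the stimuli, and the labels name no vehicle. Cells without the stimuli were not analysed here, and the labels name a single tumour-derived line for all libraries.

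Fatty acids and sterols are both built from cytosolic acetyl-CoA, and transcription of both pathways is driven by the sterol regulatory element binding proteins, SREBP1 (from Srebf1) mainly for fatty acids and SREBP2 (from Srebf2) mainly for sterols. INSIG1 holds the SREBPs in the endoplasmic reticulum when sterols are plentiful. The LXRs are nuclear receptors that sense oxysterols. In macrophages they switch on Abca1 and Abcg1, which load cholesterol onto lipoproteins, and also Srebf1 and, partly through it, fatty acid synthesis.

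Values are TPM, a share of all transcripts corrected for length and scaled to a sum of 1000000 in each library, so levels of different genes can be set side by side but a share can move because other RNA moves. In 24 h libraries 1 and 2, structured RNAs such as 7SL took 49.0% to 52.7% of the total with Mdivi-1 and 45.6% to 46.1% without it. Mitochondrial ribosomal RNA took 61.4% to 64.2% with Mdivi-1 and 53.1% to 74.2% without it at 96 h. Both 24 h libraries with number 3 stood apart: that of Mdivi-1 held 90.8% mitochondrial ribosomal RNA with no member above 0.691 TPM, and that without Mdivi-1 held 91.6% with no member above 0.988 TPM, so the 24 h values below are those of libraries 1 and 2. Macrophage markers (10 genes) summed to 18561 and 19259 TPM with Mdivi-1 and to 20508 and 20818 TPM without it at 24 h. At 96 h they summed to 296 to 360 TPM with Mdivi-1 and to 272 to 415 TPM without it, and 5 of the 10 exceeded the 95th percentile of receptor genes that macrophages do not use in every library. Fibroblast markers (12 genes), which RAW264.7 cells should lack, summed to 65.4 and 89.6 TPM with Mdivi-1 and to 308 and 335 TPM without it at 24 h, with Col1a1 at 25.4 and 14.7 TPM with Mdivi-1 and 120.2 and 138 TPM without it. Their part in the 24 h results was not tested, and in bulk RNA fewer cells of a type and less RNA per cell cannot be told apart. Adipocyte and hepatocyte markers, whose cells are rich in these pathways, were at most 0.101 TPM with Mdivi-1 and 0.125 TPM without it in 24 h libraries 1 and 2. At 96 h they reached 1.97 TPM with Mdivi-1 and 3.16 TPM without it, and none exceeded the receptor percentile.

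Promoters were searched for motifs that LXR, the SREBPs and their partner NF-Y are known to bind, and some that hold matches are printed. RefSeq windows (GRCm38.p6) of 250 bases before to 50 bases after a start were found for 25 of the 32 members, in 32 windows. There was no window for Scd1, Scd2, Fads1, Fdps, Fdft1, Sqle and Abcg1. Only bases before the start are printed, 5′ to 3′ on the gene's own strand. The LXR motif, a direct repeat of a hexamer with a spacer of 4 bases (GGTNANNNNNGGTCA, either strand), was in 3 members, Abca1, Srebf1 and Fasn, and in 0.207% of all 32851 windows. The search was first run with the base before it fixed as A, which matched 0 members and 0.0883% of all windows, and that base was then left free after the Abca1 sequence had been read. Capitals mark the repeat in Abca1 (chr4:53159896-53160055, minus strand), in Srebf1 (chr11:60210582-60210711, minus strand) and in Fasn (chr11:120824548-120824797, minus strand), where they also mark CCAAT boxes, of which a pair overlaps.
Abca1: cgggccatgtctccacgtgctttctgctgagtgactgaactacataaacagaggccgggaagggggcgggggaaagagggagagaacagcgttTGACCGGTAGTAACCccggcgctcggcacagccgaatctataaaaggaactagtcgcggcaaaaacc
Srebf1: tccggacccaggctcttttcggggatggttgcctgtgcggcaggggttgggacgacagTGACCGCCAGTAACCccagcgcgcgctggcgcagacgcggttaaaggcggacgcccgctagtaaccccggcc
Fasn: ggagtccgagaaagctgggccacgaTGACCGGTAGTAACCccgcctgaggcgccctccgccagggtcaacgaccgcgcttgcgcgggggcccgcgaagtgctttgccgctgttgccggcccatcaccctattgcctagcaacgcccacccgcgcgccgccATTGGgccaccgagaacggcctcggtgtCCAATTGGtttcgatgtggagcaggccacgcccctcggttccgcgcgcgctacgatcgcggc
In all 3 the repeat lies on the other strand, so it reads as TGACC at its left end.

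The CCAAT box, bound by NF-Y, a partner of the SREBPs, was in all 13 sterol members with a window, in 6 of the 9 fatty acid members with a window and in 0 of the 3 LXR members with a window (CCAAT, either strand). It was in 37.4% of all windows and 41.1% of the 27025 genes that have one. The sterol regulatory element (TCACNCCAC, either strand) was in the window of Hmgcs1 alone among the members and in 1.24% of all windows. A match describes letters in a window and is neither a site nor a cause. Capitals mark the element and the CCAAT boxes in Hmgcs1 (chr13:119690101-119690350, plus strand) and the CCAAT boxes in Mvk (chr5:114444084-114444268, plus strand).
Hmgcs1: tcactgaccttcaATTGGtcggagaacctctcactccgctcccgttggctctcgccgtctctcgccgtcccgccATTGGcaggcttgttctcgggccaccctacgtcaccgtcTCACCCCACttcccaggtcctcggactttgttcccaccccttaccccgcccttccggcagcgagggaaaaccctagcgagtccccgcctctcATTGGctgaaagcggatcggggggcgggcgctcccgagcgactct
Mvk: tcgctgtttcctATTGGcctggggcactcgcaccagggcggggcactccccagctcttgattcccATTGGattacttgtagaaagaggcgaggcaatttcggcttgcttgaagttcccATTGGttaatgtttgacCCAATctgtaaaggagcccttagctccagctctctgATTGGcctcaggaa
Mvk, the mevalonate kinase, held 5 CCAAT boxes and Hmgcs1 held 3 in the bases printed, most of them as ATTGG, the box on the other strand.

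At 24 h all 32 members were detected in each of the 4 libraries, and the exporters and the receptor Nr1h3 stood highest. With Mdivi-1 the highest means were those of Abcg1 (81.5 ± 8.97 TPM, SD, n = 2 libraries), Abca1 (78.4 ± 8.92 TPM), Nr1h3 (74.6 ± 5.99 TPM), Elovl1 (67.2 ± 1.13 TPM) and Acly (43.6 ± 3.48 TPM), with Scd2 at 30.2 ± 2.13 TPM. The first 3 of these did not differ beyond their spread. Without Mdivi-1, Abca1 led with a mean of 114 ± 4.16 TPM (SD, n = 2 libraries), followed by Abcg1 (83.4 ± 2.36 TPM), Nr1h3 (76.5 ± 0.758 TPM), Elovl1 (67.8 ± 0.508 TPM), Scd2 (63.2 ± 2.37 TPM) and Acly (56.1 ± 2.16 TPM). Elovl1 and Scd2 were close there, with a lowest Elovl1 value of 67.5 TPM and a highest Scd2 value of 64.9 TPM. Acss2 and Elovl6 stood lowest. Scd2, not Scd1, was the main stearoyl-CoA desaturase transcript: Scd1 was 0.0761 and 0.0734 times Scd2 with Mdivi-1 and 0.0877 and 0.0996 times Scd2 without it. Only part of the 50-base words of each transcript was compared with other genes. Of those, 3.23% of Scd2 and 1.89% of Scd1 occurred in another gene. The full share may be higher, so how well the 2 transcripts were told apart is not known.

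**Figure D1:**
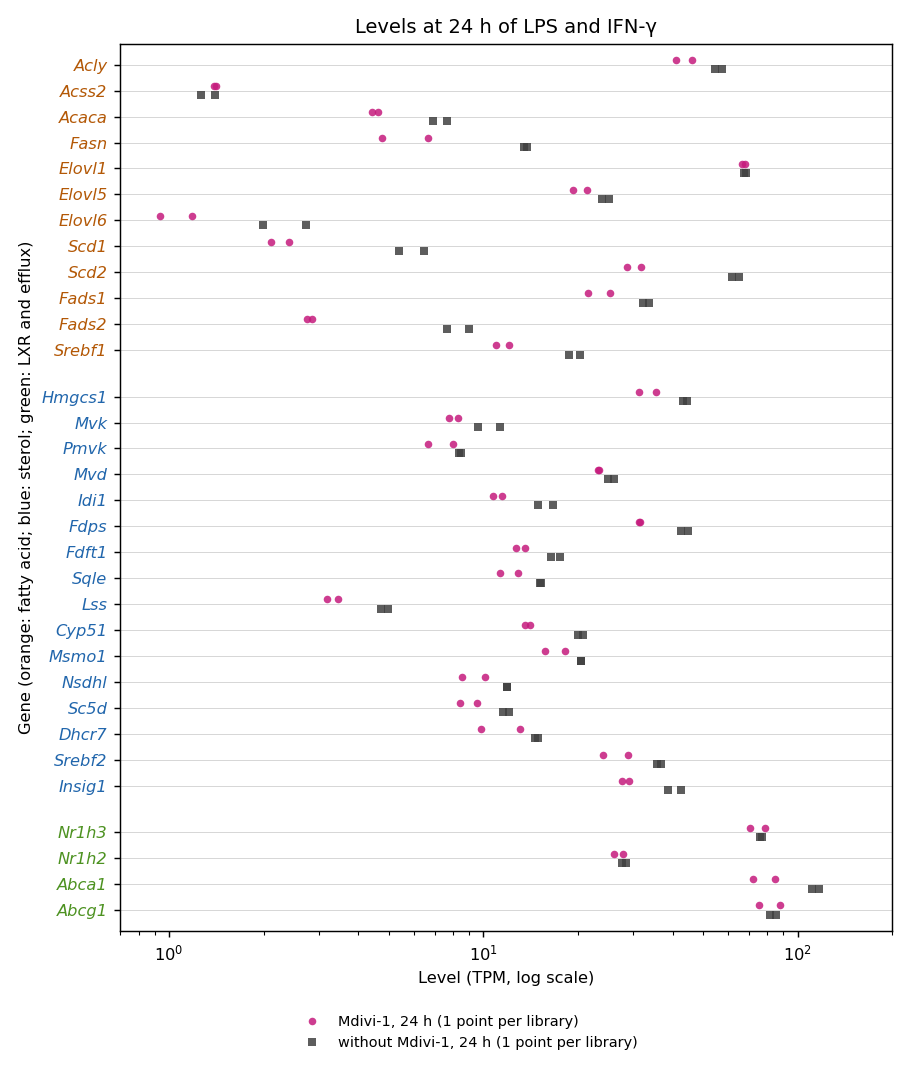
Level of each of the 32 genes at 24 h (TPM, log scale), 1 point per library, with Mdivi-1 (circles) above the libraries without it (squares), libraries 1 and 2 of each group. The desaturases Scd1, Scd2 and Fads2 and Fasn show the widest gaps, while Elovl1, Nr1h3, Nr1h2 and Abcg1 overlap.

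At 24 h most transcripts that make and desaturate fatty acids had lower levels in Mdivi-1 cells. Scd2, the main desaturase of saturated acyl-CoA, fell to 0.477 times its level without Mdivi-1, and Fads2, Scd1, Fasn and Elovl6 had mean levels of 0.336, 0.381, 0.421 and 0.449 times those without it. Elovl1 and Acss2 overlapped between the groups. In limma on log2(TPM + 1) over 10 libraries and 19631 genes, with Benjamini-Hochberg adjustment and a call at an adjusted p under 0.05, 1 of the 12 fatty acid genes fell (Scd2) and 0 rose, against 0.295% of all genes called lower. At an unadjusted p under 0.05, 8 of the 12 were lower and 0 higher, against 1186 lower and 19 higher of all 19631 genes. In 10 of the 12 both Mdivi-1 libraries were below both libraries without it, which held for 40.4% of all 19631 genes. That share includes genes that passed the filter only through the 96 h libraries, and it was not computed for genes expressed at 24 h. The median log2 change was -0.64 for the 12 genes and -0.06 for all genes tested. Over the 11105 genes that pass the filter in the 24 h libraries alone, it was -0.64 for the 12 and -0.22 for all.

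Among the desaturases, Scd2 (ENSMUSG00000025203) had 31.7 and 28.7 TPM with Mdivi-1, against 61.6 and 64.9 TPM without it. The groups were far apart, with a log2 change of -1.04 ± 0.13 (SE, 2 libraries per group, limma adjusted p = 0.0143), lower in both Mdivi-1 libraries. The call was lost when any 1 of the 4 libraries of 24 h was left out, which left 1 library in its group, with log2 changes of -1.11 to -0.97. It was also lost with median-of-ratios scaling of the 10 libraries (limma adjusted p = 0.902), with a log2 change of -0.77. That scaling called 0 of all 27248 genes lower and 0 higher. Scd1 (ENSMUSG00000037071), the second stearoyl-CoA desaturase, had 2.41 and 2.10 TPM with Mdivi-1, against 5.40 and 6.46 TPM without it, a log2 change of -1.09 ± 0.36 (limma adjusted p = 0.456). Fads2 (ENSMUSG00000024665), which opens the desaturation of polyunsaturated fatty acids, had 2.85 and 2.74 TPM with Mdivi-1, against 9.02 and 7.64 TPM without it, a log2 change of -1.29 ± 0.23 (limma adjusted p = 0.0626). Neither Scd1 nor Fads2 passed the adjusted threshold in that fit, although their groups did not overlap. Fads1, the later desaturase of the same route, had 25.2 and 21.6 TPM with Mdivi-1, against 33.6 and 32.2 TPM without it, a smaller gap. Within a library Fads2 was 0.113 and 0.127 times Fads1 with Mdivi-1 and 0.269 and 0.237 times Fads1 without it, a ratio in which the scaling of the library cancels. It can still depend on which cells the RNA came from, which was not tested.

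Of the enzymes that build the chain, Fasn (ENSMUSG00000025153), the fatty acid synthase, had 6.65 and 4.77 TPM with Mdivi-1, against 13.4 and 13.7 TPM without it, a log2 change of -1.13 ± 0.23 (limma adjusted p = 0.0872). Acaca, the acetyl-CoA carboxylase that supplies malonyl-CoA, had 4.63 and 4.41 TPM with Mdivi-1, against 6.90 and 7.64 TPM without it. Acly, which cleaves citrate to cytosolic acetyl-CoA, had 46.0 and 41.1 TPM with Mdivi-1, against 57.6 and 54.5 TPM without it. All 3 were lower in both Mdivi-1 libraries, Fasn the most and Acly the least. Scd2 was 0.688 and 0.697 times Acly with Mdivi-1 and 1.07 and 1.19 times Acly without it, so the desaturase was lower relative to the enzyme at the head of the same pathway. Acss2, which makes acetyl-CoA from acetate, lay between 1.27 and 1.41 TPM in all 4 libraries.

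The elongases differed among themselves. Elovl6, which extends palmitate, lay between 0.940 and 1.18 TPM with Mdivi-1 and between 1.99 and 2.73 TPM without it. Elovl5, which extends polyunsaturated fatty acids, had 21.4 and 19.2 TPM with Mdivi-1, against 25.0 and 23.8 TPM without it. Elovl1, which makes very long chains for sphingolipids, had 68.0 and 66.4 TPM with Mdivi-1, against 68.2 and 67.5 TPM without it, and its log2 change was -0.01 with an interval of -0.48 to 0.45. Elovl6 and Elovl5 were thus lower in both Mdivi-1 libraries by unlike amounts, and Elovl1 overlapped. Srebf1 (ENSMUSG00000020538), the gene of SREBP1, had 12.1 and 10.9 TPM with Mdivi-1, against 18.7 and 20.2 TPM without it, a log2 change of -0.71 ± 0.21 (limma adjusted p = 0.332).

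Sterol synthesis genes had lower levels with Mdivi-1 too, with a smaller median change and no call. In all 16 both Mdivi-1 libraries were below both libraries without it, and mean levels lay between 0.678 (Cyp51) and 0.910 (Mvd) times those without Mdivi-1. The non-overlap held for 40.4% of all genes, including those that passed the filter only through the 96 h libraries. In limma 0 of 16 passed the adjusted threshold, against 0.295% of all genes called lower, and 5 were lower at an unadjusted p under 0.05, against 1186 of all 19631 genes. The median log2 change was -0.36, against -0.06 for all genes. Over the genes that pass the filter in the 24 h libraries alone, the medians were -0.36 and -0.22 in the same order.

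In the mevalonate steps, Hmgcs1, which makes HMG-CoA, had 35.5 and 31.1 TPM with Mdivi-1, against 43.2 and 44.3 TPM without it. Mvk, the mevalonate kinase, had 7.75 and 8.28 TPM with Mdivi-1, against 11.3 and 9.63 TPM without it. Pmvk, the phosphomevalonate kinase, had 8.02 and 6.68 TPM with Mdivi-1, against 8.39 and 8.48 TPM without it. These groups lay close together, Pmvk above all. Mvd, the decarboxylase that follows, had 23.1 and 23.3 TPM with Mdivi-1, against 26.1 and 24.8 TPM without it, the highest ratio of the 16. Idi1, the isopentenyl diphosphate isomerase, had 11.5 and 10.7 TPM with Mdivi-1, against 14.9 and 16.7 TPM without it. Fdps, the farnesyl diphosphate synthase, had 31.2 and 31.5 TPM with Mdivi-1, against 44.6 and 42.5 TPM without it. Of the 50-base words compared for Fdps, which are part of its transcripts, 21.9% also occur in another gene, Gm43738 most of all. The full share may be higher, so the Fdps values are uncertain. Idi1 and Fdps were further apart than Mvd.

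From squalene on, Fdft1, the squalene synthase, had 12.7 and 13.5 TPM with Mdivi-1, against 17.6 and 16.4 TPM without it. Sqle, the squalene epoxidase, had 12.9 and 11.3 TPM with Mdivi-1, against 15.2 and 15.2 TPM without it. Lss, which closes the rings to lanosterol, had 3.46 and 3.18 TPM with Mdivi-1, against 4.97 and 4.71 TPM without it. The Sqle groups were the closest of these 3. Cyp51, the lanosterol demethylase, had 14.0 and 13.6 TPM with Mdivi-1, against 20.8 and 19.9 TPM without it, the lowest ratio of the 16, with a log2 change of -0.53 ± 0.20 (limma adjusted p = 0.623). Msmo1, a sterol methyl oxidase, had 18.2 and 15.7 TPM with Mdivi-1, against 20.4 and 20.4 TPM without it. Nsdhl, its partner dehydrogenase, had 10.2 and 8.55 TPM with Mdivi-1, against 11.9 and 11.9 TPM without it. Msmo1 and Nsdhl differed by less than Cyp51 did. Sc5d, the sterol desaturase, had 9.53 and 8.41 TPM with Mdivi-1, against 12.1 and 11.6 TPM without it. Dhcr7, which reduces the last double bond, had 13.1 and 9.80 TPM with Mdivi-1, against 14.9 and 14.6 TPM without it.

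The regulators were lower alongside the enzymes. Srebf2, the gene of SREBP2, had 28.8 and 24.0 TPM with Mdivi-1, against 35.6 and 36.8 TPM without it. Insig1, itself a target of the SREBPs, had 29.1 and 27.6 TPM with Mdivi-1, against 38.7 and 42.6 TPM without it. Within a library Insig1 was 1.01 and 1.15 times Srebf2 with Mdivi-1 and 1.09 and 1.16 times Srebf2 without it, and these ratios overlapped.

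The LXR group split between its exporters. Abca1 (ENSMUSG00000015243), which hands cholesterol to lipid-poor apolipoproteins, had 84.7 and 72.1 TPM with Mdivi-1, against 111 and 117 TPM without it, a log2 change of -0.54 ± 0.18 (SE, 2 libraries per group, limma adjusted p = 0.471). Abcg1, which exports cholesterol to high-density lipoprotein, had 87.9 and 75.2 TPM with Mdivi-1, against 85.0 and 81.7 TPM without it. Both Mdivi-1 libraries were lower for Abca1, and the groups overlapped for Abcg1, with a log2 change of -0.04 and an interval of -0.49 to 0.42. Abca1 was 0.964 and 0.959 times Abcg1 with Mdivi-1 and 1.30 and 1.43 times Abcg1 without it. Nr1h3, the gene of LXR alpha, had 70.4 and 78.8 TPM with Mdivi-1, against 77.0 and 75.9 TPM without it. Nr1h2, the gene of LXR beta, had 27.8 and 26.0 TPM with Mdivi-1, against 28.5 and 27.7 TPM without it. Both receptors overlapped between the groups. None of the 4 passed the adjusted threshold in limma, 1 (Abca1) was lower at an unadjusted p under 0.05, and the median log2 change was -0.05.

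The fit of 10 libraries shares its estimate of the spread with the more variable 96 h libraries, so the 4 libraries of 24 h were also fitted alone (11105 genes, 2 residual degrees of freedom). In limma on these, 19 of 32 members fell and 0 rose, 9 of 12 in fatty acid synthesis, 9 of 16 in sterol synthesis and Abca1 in the LXR group, against 21.2% of all genes called lower (2350 lower and 74 higher). Fads2 had an adjusted p of 0.000244, Fasn 0.000747, Scd1 0.000970, Srebf1 0.00181 and Abca1 0.00343 in that limma fit. All members together, 27 of 32 were below both libraries without Mdivi-1 in both Mdivi-1 libraries, and 0 were above, against 40.4% of all genes below (7940 of 19631) and 578 above. The 19631 genes include those that passed the filter only through the 96 h libraries, as the 24 h libraries alone gave 11105. The share below among those 11105 was not computed, so the members may stand out less than 40.4% makes it seem. Expressed genes at large were lower too: the 7821 genes with a mean of at least 5 TPM without Mdivi-1 at 24 h had a median log2 change of -0.21, though they were picked by the level in the libraries compared.

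Setting members against that background, by median-of-ratios scaling of the same 4 libraries (a setting chosen after seeing the data), gave unlike counts for the 3 groups. In limma 8 of 32 members fell, against 8.46% of all genes called lower (938 lower and 390 higher). They were Fads2 (-1.10 ± 0.11), Fasn (-0.92 ± 0.11), Scd1 (-0.90 ± 0.11), Scd2 (-0.81 ± 0.06), Srebf1 (-0.49 ± 0.07) and Acaca (-0.38 ± 0.09) of fatty acid synthesis, Cyp51 (-0.30 ± 0.07) of sterol synthesis, and Abca1 (-0.30 ± 0.06), as log2 changes with SE. With this scaling the median log2 change was -0.43 for fatty acid synthesis, -0.14 for sterol synthesis and 0.18 for the LXR group, against -0.01 for all genes. Abcg1, Nr1h3, Nr1h2, Elovl1, Pmvk and Mvd had log2 changes above 0 there and below 0 on the TPM scale, and none of them was called in either. Of the members called in the 24 h libraries alone, Hmgcs1, Idi1, Fdps, Srebf2, Insig1, Fads1, Acly and others were not called with it.

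Group sums were also formed within each library. As a share of all RNA other than mitochondrial and structured RNA, fatty acid synthesis summed to 499.7 and 503 per 1000000 with Mdivi-1 and 626 and 615 per 1000000 without it at 24 h. Sterol synthesis summed to 601 and 609 per 1000000 with Mdivi-1 and 704 and 693 per 1000000 without it. The LXR group summed to 605 and 621 per 1000000 with Mdivi-1 and 623 and 614 per 1000000 without it, and these overlapped. Fibroblast markers were lower in the same Mdivi-1 libraries, all 12 without overlap and 3 of 8 tested called in limma (Col1a1, Col1a2 and Col3a1).

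**Figure D2:**
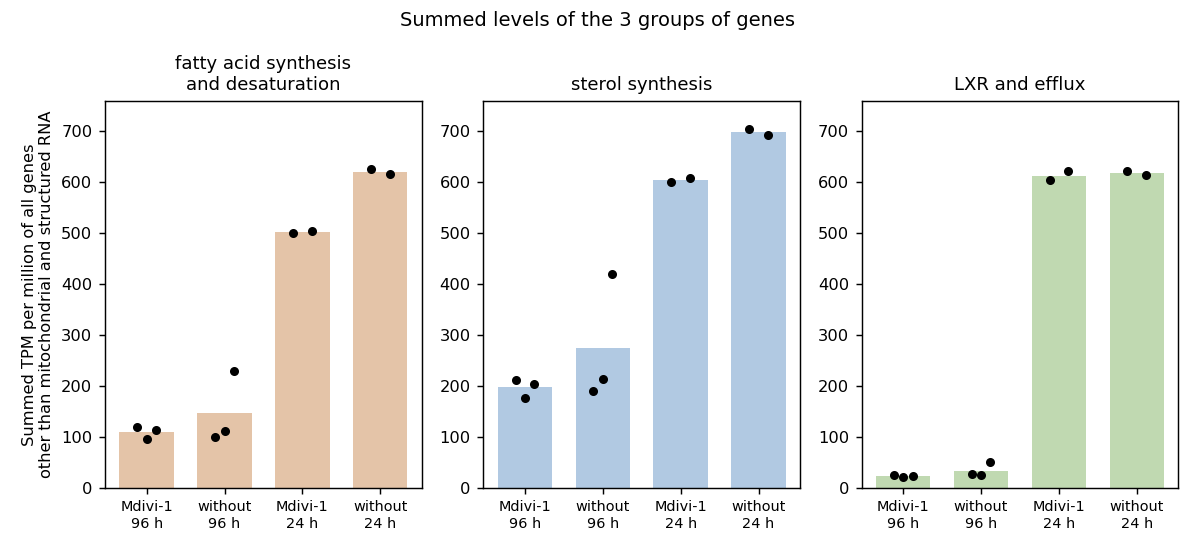
Summed level of each group of genes per 1000000 of all RNA other than mitochondrial and structured RNA, with bars for the mean and points for libraries (3 per group at 96 h, 2 at 24 h). At 24 h the fatty acid and sterol sums are lower with Mdivi-1 and the LXR sums overlap, and all 3 sums are lower at 96 h.

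At 96 h the members were close to the background of the libraries. The olfactory, vomeronasal and trace amine receptor genes (1981 genes, which macrophages do not use) had a median of 1.25 to 1.82 TPM with Mdivi-1 and 0.495 to 2.68 TPM without it, and a 95th percentile of 3.20 to 4.84 TPM with Mdivi-1 and 1.47 to 7.31 TPM without it. Members ranged from 0.407 to 17.2 TPM. Only Scd2, Fdps and Srebf2 exceeded that percentile in all 6 libraries, 15 members did so in some, and 14 did so in none. Among the 14 were Abca1, Nr1h3, Scd1 and Acaca, whose levels at 96 h were therefore not told apart from silent genes. Library 3 without Mdivi-1 stood apart, with the highest share of mitochondrial ribosomal RNA and the lowest receptor background.

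**Figure D3:**
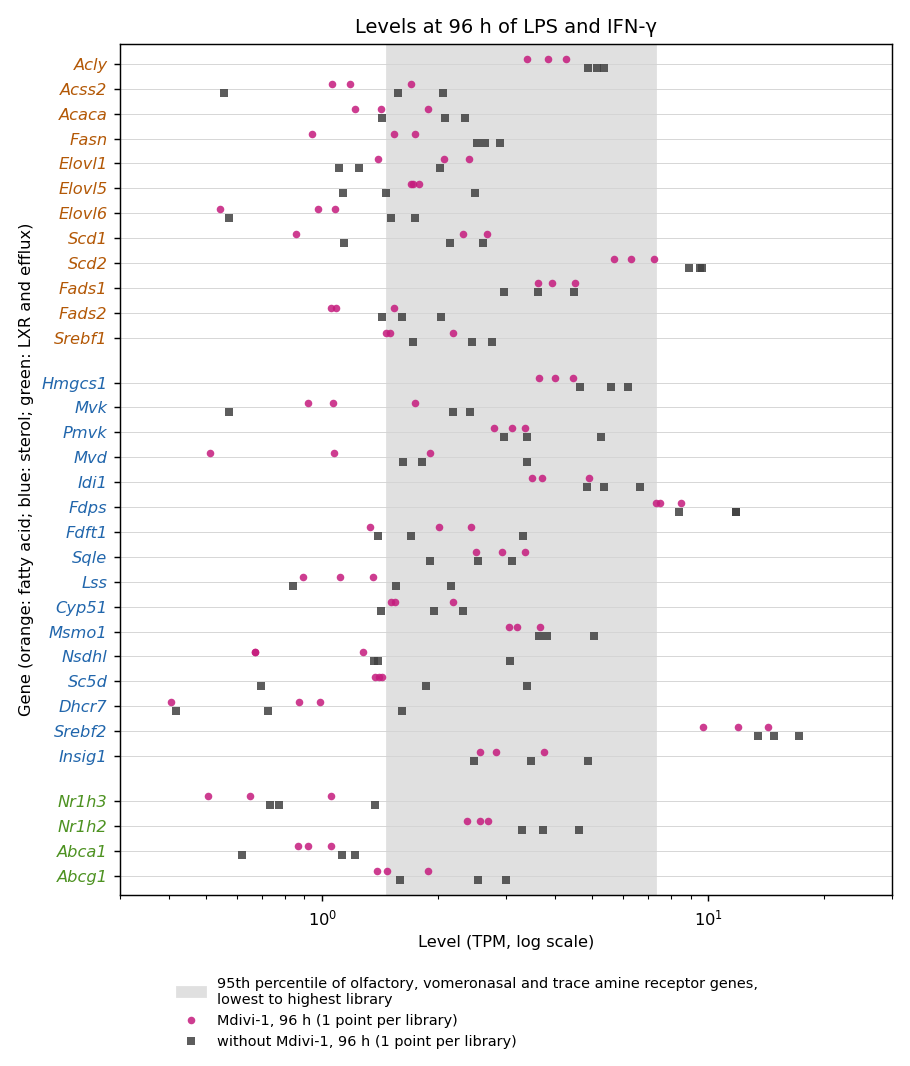
Level of each of the 32 genes at 96 h (TPM, log scale), 1 point per library, with Mdivi-1 (circles) above the libraries without it (squares). The shaded band spans the libraries' 95th percentiles of receptor genes, 1.47 to 7.31 TPM, and most members lie in or below it.

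With Mdivi-1 at 96 h, no member was called. In limma over the 10 libraries 0 of 32 passed the adjusted threshold, against 0.143% of all genes called in either direction, and at an unadjusted p under 0.05 9 were lower and 0 higher, against 703 lower and 414 higher of all 19631 genes. The median log2 change was -0.23 for the 32 members and -0.06 for all genes. In 6 members every Mdivi-1 library was below every library without it, against 4.05% of all genes. They were Scd2, Fasn and Acly of fatty acid synthesis, Hmgcs1 and Nsdhl of sterol synthesis, and Nr1h2.

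Scd2 had 6.30, 7.23 and 5.72 TPM with Mdivi-1, against 8.91, 9.64 and 9.50 TPM without it at 96 h, a log2 change of -0.49 ± 0.11 (SE, 3 libraries per group, limma adjusted p = 0.186). Fasn had 1.74, 1.54 and 0.939 TPM with Mdivi-1, against 2.88, 2.64 and 2.52 TPM without it, a log2 change of -0.63 ± 0.19 (limma adjusted p = 0.452). Acly had 4.29, 3.85 and 3.39 TPM with Mdivi-1, against 4.88, 5.39 and 5.14 TPM without it. These 3 had groups that did not overlap, at 96 h as at 24 h. Acly exceeded the receptor percentile in only 2 of 6 libraries, and Fasn lay under it in 5 of 6. Scd1 had 2.31, 0.855 and 2.67 TPM with Mdivi-1, against 2.61, 2.14 and 1.14 TPM without it. Fads2 had 1.09, 1.05 and 1.54 TPM with Mdivi-1, against 1.61, 1.43 and 2.03 TPM without it. Fads1 had 3.63, 4.51 and 3.93 TPM with Mdivi-1, against 2.95, 3.61 and 4.48 TPM without it. The other desaturases thus overlapped between the groups, and the gaps of Scd1 and Fads2 seen at 24 h were not detectable at these levels. Srebf1 had 1.50, 1.47 and 2.18 TPM with Mdivi-1, against 1.72, 2.75 and 2.45 TPM without it. Acaca had 1.22, 1.42 and 1.88 TPM with Mdivi-1, against 2.34, 2.08 and 1.43 TPM without it. Both overlapped, with the lowest values among the Mdivi-1 libraries. Elovl1 had 2.40, 1.40 and 2.07 TPM with Mdivi-1, against 1.25, 1.11 and 2.03 TPM without it. Elovl5 had 1.78, 1.71 and 1.69 TPM with Mdivi-1, against 2.48, 1.47 and 1.13 TPM without it. These elongases overlapped too, as did Acss2 and Elovl6, which ranged from 0.558 to 2.05 TPM and from 0.544 to 1.74 TPM over the 6 libraries.

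Of the sterol genes at 96 h, Hmgcs1 had 4.47, 3.64 and 3.9996 TPM with Mdivi-1, against 4.66, 5.60 and 6.21 TPM without it. Nsdhl had 0.669, 0.669 and 1.28 TPM with Mdivi-1, against 3.06, 1.36 and 1.40 TPM without it. Both were lower in every Mdivi-1 library, but Hmgcs1 exceeded the receptor percentile in only 2 of the 6 libraries and Nsdhl in 0. The receptor median was itself lower with Mdivi-1 (at most 1.82 TPM) than in libraries 1 and 2 without it (2.68 and 2.08 TPM). Srebf2, the highest member at 96 h, had 11.9, 14.3 and 9.70 TPM with Mdivi-1, against 14.8, 13.5 and 17.2 TPM without it. Fdps had 8.52, 7.49 and 7.33 TPM with Mdivi-1, against 8.40, 11.8 and 11.8 TPM without it. Idi1 had 3.50, 3.72 and 4.92 TPM with Mdivi-1, against 4.85, 6.64 and 5.38 TPM without it. Their groups overlapped by a narrow margin. Mvk had 0.918, 1.07 and 1.74 TPM with Mdivi-1, against 2.18, 2.42 and 0.573 TPM without it. Pmvk had 3.34, 2.78 and 3.10 TPM with Mdivi-1, against 3.40, 5.28 and 2.95 TPM without it. Mvd had 1.91, 0.513 and 1.07 TPM with Mdivi-1, against 3.40, 1.62 and 1.81 TPM without it. These steps overlapped, and the libraries without Mdivi-1 spread further than those with it. Fdft1 had 2.003, 1.33 and 2.43 TPM with Mdivi-1, against 1.70, 3.31 and 1.39 TPM without it. Sqle had 2.51, 2.92 and 3.35 TPM with Mdivi-1, against 2.54, 3.11 and 1.91 TPM without it. Lss had 1.11, 1.36 and 0.891 TPM with Mdivi-1, against 2.16, 1.56 and 0.839 TPM without it. All 3 overlapped, and Sqle had a higher mean with Mdivi-1.

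In the late sterol steps at 96 h, Cyp51 had 1.54, 1.51 and 2.18 TPM with Mdivi-1, against 2.31, 1.95 and 1.42 TPM without it. Msmo1 had 3.20, 3.05 and 3.67 TPM with Mdivi-1, against 5.06, 3.65 and 3.82 TPM without it. Msmo1 overlapped by 1 library, and the Cyp51 values were mixed. Sc5d had 1.40, 1.37 and 1.43 TPM with Mdivi-1, against 3.39, 1.86 and 0.693 TPM without it. Dhcr7 had 0.407, 0.869 and 0.989 TPM with Mdivi-1, against 0.724, 1.61 and 0.419 TPM without it. Insig1 had 2.82, 2.57 and 3.75 TPM with Mdivi-1, against 4.87, 3.48 and 2.48 TPM without it. These 3 overlapped as well, with Sc5d and Dhcr7 below the receptor percentile throughout.

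In the LXR group at 96 h, Nr1h2 had 2.68, 2.56 and 2.37 TPM with Mdivi-1, against 4.63, 3.72 and 3.29 TPM without it, a log2 change of -0.46 ± 0.13 (SE, 3 libraries per group, limma adjusted p = 0.435). It was lower in every Mdivi-1 library, and without library 3 of the cells without Mdivi-1 its adjusted p was 0.0434 in limma. Without that library 662 of all 20402 genes were called lower and 144 higher, and the median log2 change was -0.32 for all genes and -0.31 for the 32 members. Nr1h2 exceeded the receptor percentile in 1 of 6 libraries. Abcg1 had 1.48, 1.88 and 1.39 TPM with Mdivi-1, against 2.99, 1.59 and 2.53 TPM without it. Abca1 had 1.05, 0.920 and 0.864 TPM with Mdivi-1, against 1.22, 1.12 and 0.621 TPM without it. Nr1h3 had 0.651, 0.506 and 1.05 TPM with Mdivi-1, against 0.772, 1.37 and 0.732 TPM without it. All 3 overlapped and exceeded the receptor percentile in at most 1 of 6 libraries, so the split between Abca1 and Abcg1 seen at 24 h was not detectable at these levels.

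**Figure D4:**
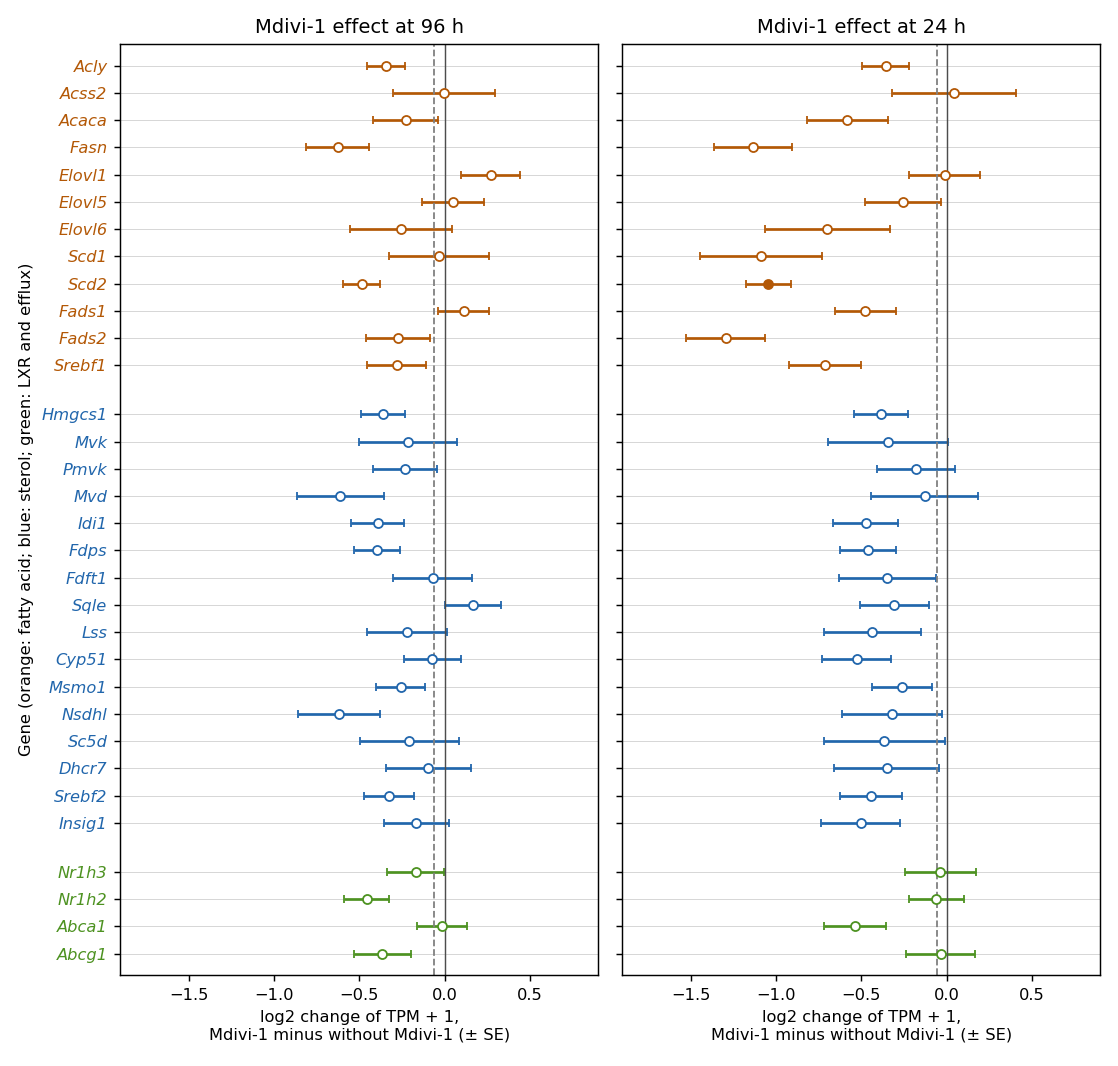
Log2 change of TPM + 1, Mdivi-1 minus no Mdivi-1, with SE, at 96 h (left, 3 libraries per group) and at 24 h (right, 2 per group) in the fit of 10 libraries. The dashed line is the median of all genes (-0.06 at both times), the filled point is the call (Scd2 at 24 h), and fatty acid genes reach furthest below 0 at 24 h. Over the genes that pass the filter in the 24 h libraries alone, the median at 24 h is -0.22.

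Whether the Mdivi-1 effect differed between 96 h and 24 h was tested directly. In limma 0 of 32 members passed, against 0.122% of all genes called in either direction, with 5 higher at an unadjusted p under 0.05 and 0 lower, against 779 higher and 89 lower of all 19631 genes. The largest differences, 96 h minus 24 h, were those of Scd1 (1.05 ± 0.46 log2), Fads2 (1.02 ± 0.30 log2), Fads1 (0.59 ± 0.23 log2) and Scd2 (0.56 ± 0.17 log2, limma adjusted p = 0.578). Scd2 thus had a negative change at both times whose difference was not called. With a pseudocount of 5 in place of 1, the difference of Scd2 was 0.62 with an adjusted p of 0.0464 in limma. Calls over all 19631 genes rose with that pseudocount as well, to 5 lower and 143 higher from 2 lower and 22 higher.

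Between 96 h and 24 h nearly every member was lower at 96 h, as were most expressed genes. With Mdivi-1, 29 of 32 fell and 0 rose in limma, against 44.0% of all genes called lower. Without Mdivi-1, 30 of 32 fell and 0 rose, against 46.9% of all genes called lower. Among genes with a mean of at least 5 TPM over the 10 libraries, 25 of 25 members and 5121 of all 5813 genes fell with Mdivi-1. Without it, 25 of 25 members and 5170 of all 5813 genes fell, so the fall was general among such genes. A gene can pass this filter through its 24 h values alone, which in part fixes its direction. At an unadjusted p under 0.05 the counts of members higher were also 0. Acss2 and Elovl6 were not called in either, nor was Scd1 with Mdivi-1. Time came with another kind of library, with more mitochondrial ribosomal RNA and a higher receptor background at 96 h, and the effect of time and that of the library cannot be told apart.

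Fatty acid and sterol synthesis genes had negative median changes with time on the TPM scale. With Mdivi-1 the median log2 change was -1.78 for fatty acid synthesis and -2.05 for sterol synthesis, and without Mdivi-1 it was -2.31 and -2.20 in the same order. The median of all 19631 genes was -0.12 with Mdivi-1 and -0.41 without it. The 7821 genes with a mean of at least 5 TPM at 24 h without Mdivi-1 had medians of -2.17 with Mdivi-1 and -2.33 without it, but they were picked by a high level in the 24 h libraries, which in part fixes their direction. Srebf2, the highest member at 96 h, had a log2 change of -1.09 ± 0.16 with Mdivi-1 and -1.21 ± 0.16 without it. With median-of-ratios scaling, under which the median log2 change of all genes was 1.52 with Mdivi-1 and 1.46 without it, 11 members were lower and 7 higher with Mdivi-1, and 10 were lower and 5 higher without it. Fatty acid synthesis had 3 lower and 4 higher with Mdivi-1, and 4 lower and 1 higher without it. Sterol synthesis had 4 lower and 3 higher with Mdivi-1, and 3 lower and 4 higher without it. With that scaling the fatty acid and sterol medians were 0.21 and -0.23 with Mdivi-1, and -0.01 and -0.15 without it. Of all 27248 genes tested there, 2561 were lower and 15819 higher with Mdivi-1, and 2540 were lower and 15148 higher without it. Srebf2 was among those that turned, at 1.17 with Mdivi-1 and 1.22 without it.

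Abca1 and Nr1h3 had the largest changes of the 32 with time, followed by Abcg1 and Elovl1, and at 96 h each of these 4 exceeded the receptor percentile in at most 1 of 6 libraries. Abca1 was -5.35 ± 0.16 log2 with Mdivi-1 and -5.87 ± 0.16 log2 without it. Nr1h3 was -5.45 ± 0.19 log2 with Mdivi-1 and -5.32 ± 0.19 log2 without it. Abcg1 was -5.000 ± 0.19 log2 with Mdivi-1 and -4.67 ± 0.19 log2 without it. The limma adjusted p-values of these 3 were at most 6.25e-09. Nr1h2 changed by -2.98 ± 0.15 log2 with Mdivi-1 and -2.58 ± 0.15 log2 without it, nearer to the other groups. Elovl1 was -4.54 ± 0.19 log2 with Mdivi-1 and -4.83 ± 0.19 log2 without it. The median of the 4 was -5.17 with Mdivi-1 and -5.00 without it, and it stayed below 0 with median-of-ratios scaling, at -3.18 with Mdivi-1 and -2.80 without it. Macrophage markers moved with it, as 10 of 10 fell with a median of -6.05 with Mdivi-1 and -5.92 without it, and their part in the LXR result was not tested.

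Other genes of these pathways, from lists of 26 fatty acid, 23 sterol and 17 LXR genes, gave no call with Mdivi-1. At 24 h 0 of 21, 0 of 21 and 0 of 15 tested genes passed in limma, and their median log2 changes were -0.17, -0.30 and -0.26. At an unadjusted p under 0.05, 3, 5 and 2 were lower and 1, 0 and 1 higher at 24 h. At 96 h 0 passed in any list, with medians of -0.06, -0.06 and -0.13, and at an unadjusted p under 0.05 3, 1 and 1 were lower and 1 was higher in each. On the TPM scale, with time and Mdivi-1, 20 of 21 fatty acid genes, 18 of 21 sterol genes and 15 of 15 LXR genes fell. Ch25h of the sterol list was called higher, but it exceeded the receptor percentile in 0 of 6 libraries at 96 h. Without Mdivi-1, 21, 18 and 15 fell in the same order. The shares of all genes called lower were 44.0% with Mdivi-1 and 46.9% without it. Of the 5813 genes with a mean of at least 5 TPM, 5121 fell with Mdivi-1 and 5170 without it, though 24 h values alone can pass that filter. With median-of-ratios scaling 10 of 24, 5 of 21 and 7 of 16 were lower and 5, 5 and 3 higher with Mdivi-1, and 9, 6 and 8 were lower and 4, 4 and 2 higher without it. The LXR list was led by Apoe, an apolipoprotein, at -9.72 log2 with Mdivi-1 and -10.03 without it, and by Cd36, a scavenger receptor, at -5.49 with Mdivi-1 and -5.38 without it. Apoe had 1279 and 1276 TPM with Mdivi-1 and 1283 and 1443 TPM without it at 24 h, and at most 0.662 TPM at 96 h. Whether its 24 h level belongs to the labelled line was not tested. The fatty acid list was led by the fatty acid binding proteins Fabp4 (-6.40 with Mdivi-1, -5.29 without it) and Fabp5 (-5.68 with Mdivi-1, -4.96 without it) and the lipid droplet protein Plin2 (-5.38 with Mdivi-1, -5.51 without it). The sterol list was led by Npc2 (-5.32 with Mdivi-1, -5.62 without it) and Npc1 (-3.997 with Mdivi-1, -3.87 without it), which move cholesterol out of lysosomes. These 7 genes stayed negative and called with median-of-ratios scaling.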

How the data were processed

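RNA-seq of 12 libraries was analysed. Per the labels, 100 ng of total RNA was used after ribosomal RNA depletion, with a directional kit. The deposited values are TPM made by the authors, each library summing to 1000000, so read depth is unknown and no counting interval is given. The build named in the submitters' processing notes is hg19, while 99.5% of the identifiers (49326) are mouse identifiers of GENCODE M21, so no coordinates come from the table. No aligner, counting program or annotation is given in the sources used here.

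From these values, log2(TPM + 1) of genes with a mean of at least 1 TPM was fitted over 4 groups in 10 libraries, leaving out both 24 h libraries with number 3 (6 residual degrees of freedom). Contrasts were Mdivi-1 against none at 96 h and at 24 h, their difference, and 96 h against 24 h with and without Mdivi-1. The fit used limma-trend (R 4.3.3, limma 3.58.1). Every p-value is limma's, adjusted by Benjamini-Hochberg over all genes tested. Log2 changes on this scale understate changes of low genes. Nothing in the labels says that replicates came from separate cultures, and a p-value then measures only how far these samples spread. No pair of libraries shared identical values (0%).

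Median-of-ratios scaling divides each library by the median of its ratios to the mean library. The fit was tested on simulated data. All 32 members are named, with every library's value for members called or with a mean of at least 10 TPM in 1 group. Other pathway genes are named where called, at most 4 per list. The members and lists were chosen with earlier results of these data known. Of the listed genes, Itgam and Erg28 were not used here. Motifs were searched in RefSeq promoter windows with Python 3.11.15 and pandas 2.3.3, and plots used matplotlib 3.10.9. Pseudocounts of 0.1 and 5, other filters, other scalings, all 12 libraries, libraries of 1 time alone, background subtraction, a replicate block, no variance trend and leaving out each library were tried as alternatives.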

Additional observations from a re-analysis of the deposited data

How the results depend on the processing

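For the Mdivi-1 effect at 24 h, where 1 member (Scd2, lower) was called, the count of members was 5 with a pseudocount of 5 and 19 with the libraries of 1 time alone. Calls over all genes rose as well, to 408 lower with the pseudocount of 5 and to 2350 lower of 11105 with the libraries of 1 time alone, against 58 lower of 19631. The count of members was 8 with those libraries and median-of-ratios scaling, a setting chosen after seeing the data (938 of all 11081 genes lower). It was 0 with all 12 libraries, with median-of-ratios scaling of 10 libraries, with rescaling without mitochondrial and structured RNA, and with no variance trend. Over all genes these settings called 0, 0, 1 and 14 lower in that order, and 0 higher. Leaving out a library of 96 h gave 1 to 3 at 24 h. Without any 1 of the 4 libraries of 24 h Scd2 was no longer called, and its group was left with 1 library assumed to vary like the others. At 96 h leaving out a library gave 0 to 1. For the difference of the effects a pseudocount of 5 gave 1 (Scd2), with 5 lower and 143 higher of all 19631 genes. With time, all 12 libraries gave 0 with and without Mdivi-1, a fit that includes both 24 h libraries with number 3, which hold almost no messenger RNA. Median-of-ratios scaling gave 18 with Mdivi-1 and 15 without it, and leaving out a library gave 28 to 29 with Mdivi-1 and 29 to 30 without it.

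Directions turned only for time, among called members. With median-of-ratios scaling and Mdivi-1 the log2 changes were 0.36 for Fdps, 0.92 for Pmvk, 0.041 for Msmo1, 0.52 for Lss, 0.56 for Acaca, 0.26 for Fasn, 0.80 for Idi1, 0.29 for Sqle, 1.17 for Srebf2, 0.74 for Fads2 and 0.15 for Scd2. With that scaling and no Mdivi-1 they were 0.48 for Fdps, 1.13 for Pmvk, 0.22 for Msmo1, 0.54 for Lss, 0.47 for Acaca, 0.17 for Fasn, 0.92 for Idi1, 1.22 for Srebf2, 0.18 for Fads2 and 0.65 for Scd1. With all 12 libraries Srebf2 was 0.42 with Mdivi-1, and Srebf2 was 0.39 and Pmvk 0.0175 without it. Apart from what is named here the cause of these moves was not tested.

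A fit with the replicate block called 0 members at 24 h in place of 1, and 1 of all 19631 genes in place of 58. Departures from the group means correlated between same-numbered libraries at -0.02 at 24 h and at -0.11, -0.02 and -0.24 at 96 h. With 2 libraries per group, the 24 h correlations can differ in sign alone, so they cannot show whether the numbers pair the samples. The loss of the call with the block therefore stands as a limit. TPM keeps no depth, and at 96 h the receptor background limits what can be seen of 29 of the 32 members.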

Other observations

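Outside the 32 members, Ch25h was picked after its values were seen. Ch25h, which makes the oxysterol that activates LXR and restrains the SREBPs, had 0.273 and 0.864 TPM with Mdivi-1, against 4.69 and 2.94 TPM without it at 24 h, a log2 change of -1.62 ± 0.36 (SE, limma adjusted p = 0.117). At 96 h it had 1.62, 2.35 and 2.70 TPM with Mdivi-1, against 1.80, 1.60 and 0.682 TPM without it, and the difference of the Mdivi-1 effects was 2.09 ± 0.46 log2 (limma adjusted p = 0.249). The groups did not overlap at 24 h, and neither value was called. At 96 h the groups overlapped and Ch25h exceeded the receptor percentile in 0 of 6 libraries, so its level there was not told apart from silent genes.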
